A study of Homo sapiens with 9 samples.

Results

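The genes described here are 9 genes of the extracellular matrix and of the cell surface around it: FN1, SPARC, THBS1, SERPINE2, DCN, DKK3, GPNMB, ADAMTS10 and CEMIP2. They were matched by symbol to Ensembl gene identifiers, and all 9 were found among the 57905 genes of the deposited table and passed the filter on low counts that kept 13252 genes. They were chosen with their levels and changes in these libraries already known, so their values are given as a description, with no p-value. Secreted matrix is a loose name for the group, since GPNMB and CEMIP2 are anchored in membranes. The RNA came from KYSE180, an established line of human squamous cell carcinoma of the esophagus, given in the series title as KDM6A-deficient. Before RNA was taken, cells of every group received 6 Gy of ionizing radiation. The 9 libraries form 3 groups of 3: a control hairpin against luciferase (shluc), and the hairpins shEZH2#1 and shEZH2#3 against EZH2. The genotype label reads WT for shluc and knockout for the EZH2 hairpins, whereas the titles and the design text name a knockdown by short hairpin RNA. The sources used here do not say how KDM6A was lost, whether a hairpin line is a clone or a pool, or whether replicates were separate cultures. The p-values of other genes therefore reflect library-to-library spread alone, possibly only technical. Unirradiated cells were not analysed here.

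EZH2 is the catalytic subunit of Polycomb repressive complex 2, which methylates histone H3 at lysine 27 and so keeps genes silent, and KDM6A is a demethylase of the same mark. The extracellular matrix is a network of fibrillar glycoproteins, proteoglycans and hyaluronan, which cells build, bind through integrins and remodel with proteases. In carcinomas most of it is laid down by fibroblasts, but the tumour cells also secrete fibronectin, thrombospondin and matrix proteases.

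No motif searched was shared by all the start sites of these genes. RefSeq promoter entries (GRCh38.p14) matched 7 of the 9 genes, with a pair of entries each for SERPINE2 and ADAMTS10. The 250 bases before each start were searched on both strands for the GC box GGGCGG, the TATA box TATAAA, the AP-1 site TGACTCA, the E-box CACGTG, the CCAAT box CCAAT and the cyclic AMP response element TGACGTCA. Of 35116 promoters, 42.6% held the GC box, 10.7% the TATA box, 4.2% the AP-1 site, 6.3% the E-box, 32.0% the CCAAT box and 1.6% the cyclic AMP response element. Overlapping matches were each counted. The stretches printed are those for genes with different patterns of expression: FN1 and ADAMTS10 (higher with both hairpins), THBS1 (lower with both) and SERPINE2 (lowest with shEZH2#3). Each is printed 5′ to 3′ on the strand of the gene, up to the first base that GENCODE 29 places in an exon of that gene, with motif matches in capitals.
FN1, chr2:215436173-215436318, minus strand: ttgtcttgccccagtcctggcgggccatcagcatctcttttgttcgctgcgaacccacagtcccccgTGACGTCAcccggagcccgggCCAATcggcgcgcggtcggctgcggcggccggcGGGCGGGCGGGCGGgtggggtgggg
ADAMTS10, chr19:8610736-8610965, minus strand: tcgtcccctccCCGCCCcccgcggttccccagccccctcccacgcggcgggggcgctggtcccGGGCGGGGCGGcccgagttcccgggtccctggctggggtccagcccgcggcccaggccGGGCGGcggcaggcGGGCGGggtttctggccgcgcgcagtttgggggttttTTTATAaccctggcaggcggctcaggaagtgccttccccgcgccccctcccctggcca
THBS1, chr15:39580829-39581078, plus strand: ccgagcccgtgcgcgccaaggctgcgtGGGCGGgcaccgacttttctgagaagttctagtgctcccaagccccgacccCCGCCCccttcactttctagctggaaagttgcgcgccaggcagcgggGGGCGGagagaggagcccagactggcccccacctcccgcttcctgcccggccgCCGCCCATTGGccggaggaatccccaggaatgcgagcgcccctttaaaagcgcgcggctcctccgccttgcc
SERPINE2, chr2:224031479-224031728, minus strand, at a start inside the gene: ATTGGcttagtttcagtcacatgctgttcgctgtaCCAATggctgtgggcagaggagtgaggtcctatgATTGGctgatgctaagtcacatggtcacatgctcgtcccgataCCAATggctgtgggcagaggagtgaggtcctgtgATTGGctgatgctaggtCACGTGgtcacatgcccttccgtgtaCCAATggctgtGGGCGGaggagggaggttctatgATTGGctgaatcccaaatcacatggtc
The printed stretch of FN1, 146 of its 250 bases, held 3 GC boxes, 1 CCAAT box and 1 cyclic AMP response element. All 250 bases of FN1 held 6 GC boxes. The printed stretch of ADAMTS10 held 5 GC boxes and 1 TATA box. That of THBS1, a gene that differed from shluc in the opposite direction, held 4 GC boxes and 1 CCAAT box. The SERPINE2 stretch, which lies before an alternative start, held 7 CCAAT boxes, 1 GC box and 1 E-box, with a GC content of 53.2%. The 250 bases before the other SERPINE2 start (chr2:224038641-224038890) held 2 GC boxes and no CCAAT box or E-box, with a GC content of 75.2%. Those before the other ADAMTS10 start held 1 CCAAT box and no GC box, with a GC content of 63.2%. The 250 bases before the start of SPARC held none of the 6 motifs and those of GPNMB held 1 AP-1 site. The windows of SPARC (chr5:151686916-151687165), GPNMB (chr7:23246525-23246774) and CEMIP2 (chr9:71768514-71768763) lie inside the spans that GENCODE 29 gives these genes. So do the windows before the other SERPINE2 and ADAMTS10 starts. GC content of the 250 bases was 76.4% in FN1, 78.4% at the printed ADAMTS10 start and 69.6% in THBS1. It was 59.2% in SPARC, 38.8% in GPNMB and 71.6% in CEMIP2, against a median of 58.0% over all promoters. A match is a description of letters, not of a bound factor.

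Depth was 14958011 to 21152006 estimated counts per library. Levels are given in CPM, counts scaled to a common value of the library total times its TMM factor. That factor was 1.114, 1.326 and 1.125 in shluc replicates 1 to 3 and 1.052, 0.978 and 0.91 with shEZH2#1. It was 0.827, 0.874 and 0.889 with shEZH2#3, so levels in CPM are not shares of the library total. EZH2 (ENSG00000106462) stood at 18.4, 20.1 and 19.5 CPM in shluc replicates 1 to 3. It stood at 11.6, 11.4 and 7.28 CPM with shEZH2#1 and at 9.67, 11.0 and 9.12 CPM with shEZH2#3. No EZH2 hairpin library reached the shluc range, and EZH2 fell by 0.94 ± 0.18 (SE) on the log2 scale with shEZH2#1 (edgeR quasi-likelihood test, Benjamini-Hochberg adjusted p = 0.00163) and by 0.96 ± 0.18 with shEZH2#3 (adjusted p = 0.000433). Of 16 squamous epithelium markers, 7 lay under 1 CPM in all 9 libraries, among them KRT5, KRT14, SOX2 and DSG3, and TP63 did not exceed 1.03 CPM, whereas KRT17 averaged 1164 to 1452 CPM over the groups. Summed fibroblast markers (12 genes) ranged from 1070.2 to 1509 CPM in shluc, 1256 to 1279 with shEZH2#1 and 1688 to 2942 with shEZH2#3, mostly from S100A4 and VIM, while COL1A2 and PDGFRA were at 0. Their part in the results was not tested. Summed endothelial markers (7 of 8 genes, as PECAM1 was not found by symbol) ranged from 14.1 to 19.9 CPM in shluc. They ranged from 8.02 to 8.46 with shEZH2#1 and 28.4 to 32.8 with shEZH2#3, mostly from CDH5 at means of 17.4, 7.55 and 29.9 CPM. Summed leukocyte and macrophage markers (9 genes) ranged from 19.1 to 24.1, 16.6 to 20.9 and 26.0 to 30.0 CPM in the same order, mostly from CD68 at means of 18.6, 16.0 and 23.1 CPM. The part of these markers in the results was not tested either. Leukocyte PTPRC, AIF1 and CD3E, endothelial KDR and EMCN, and melanocyte TYR, DCT and SOX10 were at 0 in every library. The rank correlation between a gene's GC content and its deviation from its own mean ran from -0.69 to -0.39 in shluc, from -0.25 to 0.25 with shEZH2#1 and from 0.37 to 0.64 with shEZH2#3, so GC content moved with the groups. Values from a fit with an offset for GC content and length are therefore given beside many of the results. With that offset EZH2 fell by 0.73 with shEZH2#1 and by 0.56 with shEZH2#3, both past the threshold.

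Of the 9 genes, 6 had higher mean levels with both hairpins (FN1, SPARC, DCN, DKK3, GPNMB and ADAMTS10), THBS1 and CEMIP2 had lower ones with both, and SERPINE2 differed in direction. At an adjusted p below 0.05, 8 of the 9 were called with shEZH2#1 (6 higher, 2 lower) beside 19.0% of all tested genes (11.2% higher, 7.89% lower). All 9 were called with shEZH2#3 (6 higher, 3 lower) beside 44.2% (24.4% higher, 19.8% lower). Called with both in 1 direction were 8 (6 higher, 2 lower), beside 11.3% of all genes (7.99% higher, 3.26% lower). Every library of both hairpins lay above every shluc library for 5 genes, beside 12.0% of all genes, and below for 2, beside 9.54%. The genes were chosen on these contrasts, so nothing is read from the counts, and both comparisons share the shluc libraries.

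**Figure D1:**
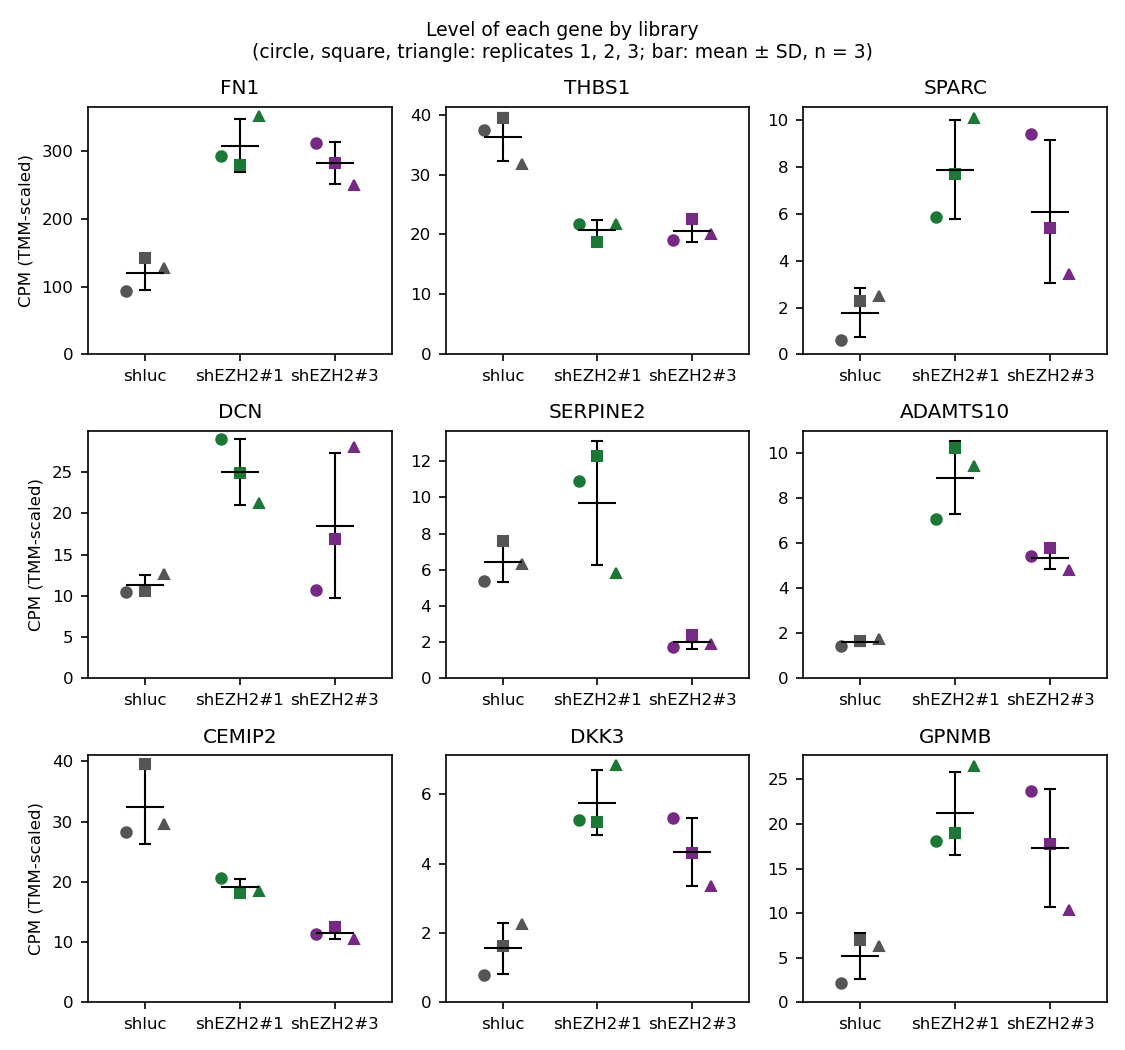
Level of each of the 9 genes (TMM-scaled CPM, linear axis from 0) in the 3 libraries of each group, with circles, squares and triangles for replicates 1, 2 and 3 and bars for the mean ± SD (n = 3). FN1 ran from 93.0 to 142 CPM in shluc and from 250.4 to 352 CPM in the 6 EZH2 hairpin libraries, and THBS1 lay lower in all 6 than in any shluc library.

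FN1 encodes fibronectin, the glycoprotein that assembles into fibrils on integrin alpha5beta1 and carries other matrix proteins. The gene (ENSG00000115414) lies on the minus strand of chromosome 2 at 215360440 to 215436172 (GENCODE 29, GRCh38). Its level was 93.0, 142 and 127 CPM in shluc replicates 1 to 3, 293, 279.8 and 352 CPM with shEZH2#1, and 313, 283 and 250.4 CPM with shEZH2#3. All 6 EZH2 hairpin libraries exceeded the highest shluc library. In bulk RNA a change in the share of cells that express a gene and a change in RNA per cell cannot be told apart. Means were 121 ± 25.3 CPM in shluc, 309 ± 38.6 with shEZH2#1 and 282 ± 31.3 with shEZH2#3 (SD, n = 3). FN1 thus had a log2 fold change of 1.35 ± 0.17 (SE) with shEZH2#1 and 1.22 ± 0.17 with shEZH2#3, and the hairpins differed by 0.13 ± 0.17.

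SPARC encodes osteonectin, a matricellular protein that binds collagen, on chromosome 5 at 151661096 to 151687165 (ENSG00000113140, minus strand). Its level was low: 0.599, 2.27 and 2.49 CPM in shluc, 5.87, 7.73 and 10.1 CPM with shEZH2#1, and 9.44, 5.42 and 3.42 CPM with shEZH2#3. Shluc replicate 1 held 13 estimated counts and stood well below the other control libraries. Means were 1.79 ± 1.04, 7.89 ± 2.11 and 6.1 ± 3.06 CPM (SD, n = 3), and all 6 hairpin libraries lay above shluc. The log2 fold change was 2.13 ± 0.39 (SE) with shEZH2#1 and 1.76 ± 0.39 with shEZH2#3, and it was 1.72 and 1.35 without shluc replicate 1. CLMAT3, annotated on the opposite strand over SPARC, had 0 CPM in every library.

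THBS1 encodes thrombospondin 1, a trimeric matricellular glycoprotein that inhibits angiogenesis and can activate latent TGF-beta. It lies on the plus strand of chromosome 15 at 39581079 to 39599466 (ENSG00000137801). Its level was 37.4, 39.4 and 31.7 CPM in shluc, 21.7, 18.8 and 21.8 CPM with shEZH2#1, and 19.0, 22.6 and 20.1 CPM with shEZH2#3. Unlike for FN1 and SPARC, the 3 shluc libraries were the highest. Means were 36.2 ± 3.99, 20.7 ± 1.69 and 20.6 ± 1.87 CPM (SD, n = 3), a log2 fold change of -0.80 ± 0.15 (SE) with shEZH2#1 and -0.81 ± 0.15 with shEZH2#3. With the GC and length offset these were -0.48 and -0.38. FSIP1, which overlaps it on the other strand, did not exceed 0.221 CPM. AC037198.1, annotated on the same strand within it, and AC037198.2, on the other strand, were not analysed here.

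DCN encodes decorin, a small leucine-rich proteoglycan that binds collagen fibrils and TGF-beta (ENSG00000011465, chromosome 12 at 91140484 to 91183123, minus strand). Its level was 10.5, 10.6 and 12.7 CPM in shluc, 29.0, 24.9 and 21.2 CPM with shEZH2#1, and 10.7, 16.9 and 28.0 CPM with shEZH2#3. The shEZH2#1 libraries were all above shluc, but shEZH2#3 replicate 1 lay among the controls. Means were 11.3 ± 1.21, 25.0 ± 3.94 and 18.5 ± 8.74 CPM (SD, n = 3). The log2 fold change was 1.15 ± 0.24 (SE) with shEZH2#1 and 0.72 ± 0.24 with shEZH2#3. The latter was 0.28 and no longer past the threshold without shEZH2#3 replicate 3, and 0.67 and 0.66, also not past it, without shluc replicate 1 or 2. It was 1.34 with the GC and length offset.

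SERPINE2 encodes protease nexin 1, a secreted serpin that inhibits thrombin and plasminogen activators, on chromosome 2 at 223975112 to 224039319 (ENSG00000135919, minus strand). Its level was 5.39, 7.58 and 6.33 CPM in shluc, 10.9, 12.3 and 5.81 CPM with shEZH2#1, and 1.72, 2.37 and 1.88 CPM with shEZH2#3. The shEZH2#3 libraries were below all others, whereas shEZH2#1 replicate 3 lay within the shluc range. Means were 6.43 ± 1.1, 9.67 ± 3.42 and 1.99 ± 0.34 CPM (SD, n = 3). The log2 fold change was 0.59 ± 0.24 (SE) with shEZH2#1, not past the threshold, and -1.70 ± 0.27 with shEZH2#3. The shEZH2#1 value was 0.85 and past the threshold without shEZH2#1 replicate 3, and 0.80 with the GC and length offset. The difference of shEZH2#1 from shEZH2#3 was 2.29 ± 0.27, the largest among the 9 genes.

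DKK3 encodes a secreted glycoprotein of the Dickkopf family that is often reported silenced in tumours (ENSG00000050165, chromosome 11 at 11963106 to 12009769, minus strand). Its level was 0.783, 1.64 and 2.25 CPM in shluc, 5.26, 5.19 and 6.83 CPM with shEZH2#1, and 5.32, 4.3 and 3.37 CPM with shEZH2#3. All 6 hairpin libraries were above shluc, with shluc replicate 1 again lowest. Means were 1.56 ± 0.738, 5.76 ± 0.928 and 4.33 ± 0.975 CPM (SD, n = 3). For DKK3 the log2 fold change was 1.88 ± 0.31 (SE) with shEZH2#1 and 1.47 ± 0.31 with shEZH2#3, and 1.57 and 1.16 without shluc replicate 1.

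GPNMB encodes a type I transmembrane glycoprotein of lysosomes and melanosomes whose ectodomain can be shed (ENSG00000136235, chromosome 7 at 23235967 to 23275108, plus strand). Its level was 2.21, 6.94 and 6.33 CPM in shluc, 18.1, 19.0 and 26.5 CPM with shEZH2#1, and 23.7, 17.8 and 10.4 CPM with shEZH2#3. All 6 hairpin libraries were above shluc. Means were 5.16 ± 2.57, 21.2 ± 4.64 and 17.3 ± 6.66 CPM (SD, n = 3). Its log2 fold change was 2.03 ± 0.32 (SE) with shEZH2#1 and 1.74 ± 0.32 with shEZH2#3, and 1.67 and 1.38 without shluc replicate 1.

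ADAMTS10 encodes a secreted metalloproteinase of the ADAMTS family that binds fibrillin microfibrils (ENSG00000142303, chromosome 19 at 8580242 to 8610735, minus strand). Its level was 1.43, 1.68 and 1.73 CPM in shluc, 7.08, 10.2 and 9.41 CPM with shEZH2#1, and 5.43, 5.8 and 4.81 CPM with shEZH2#3. The 3 groups did not overlap. Means were 1.61 ± 0.159, 8.9 ± 1.62 and 5.35 ± 0.502 CPM (SD, n = 3). The log2 fold change was 2.46 ± 0.23 (SE) with shEZH2#1 and 1.73 ± 0.23 with shEZH2#3, or 2.03 and 1.06 with the GC and length offset. Its longest coding transcript has 64.9% GC, the highest among the 9.

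CEMIP2 encodes a transmembrane protein reported as a cell surface hyaluronidase (ENSG00000135048, chromosome 9 at 71683366 to 71816690, minus strand). Its level was 28.3, 39.6 and 29.6 CPM in shluc, 20.7, 18.1 and 18.5 CPM with shEZH2#1, and 11.4, 12.5 and 10.5 CPM with shEZH2#3. The groups did not overlap, and shEZH2#3 was lowest. Means were 32.5 ± 6.17, 19.1 ± 1.38 and 11.5 ± 1.02 CPM (SD, n = 3). On the log2 scale the fold change was -0.77 ± 0.16 (SE) with shEZH2#1 and -1.50 ± 0.17 with shEZH2#3, or -0.44 and -1.07 with the GC and length offset.

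**Figure D2:**
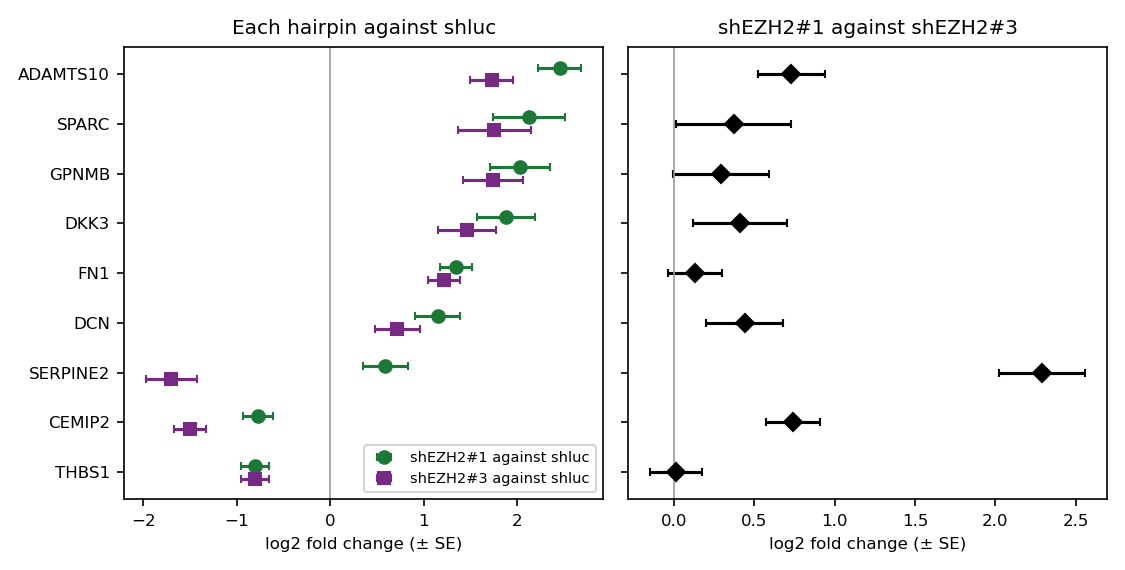
Log2 fold change (± SE from the fit) of each gene with shEZH2#1 (circles) and shEZH2#3 (squares) against shluc, left, and of shEZH2#1 against shEZH2#3 (diamonds), right. SERPINE2 lies at 0.59 with shEZH2#1 and -1.70 with shEZH2#3.

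The hairpins differed for 3 of the 9 genes at an adjusted p below 0.05 (SERPINE2, ADAMTS10 and CEMIP2), all higher with shEZH2#1, beside 25.0% of all genes (9.46% higher), and their libraries did not overlap for the same 3, beside 42.9%. The difference of shEZH2#1 from shEZH2#3 was 0.73 ± 0.21 (SE) in ADAMTS10 and 0.74 ± 0.17 in CEMIP2. In ADAMTS10 it did not pass the threshold without shEZH2#1 replicate 2 or without shEZH2#3 replicate 3. For the other 6 genes the difference ran from 0.01 ± 0.16 in THBS1 to 0.44 ± 0.24 in DCN and did not pass the threshold, which does not show that the hairpins act alike.

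Levels were compared between genes as CPM per kilobase of the longest GENCODE 29 coding transcript. In shluc FN1 was highest at 13.6 ± 2.84 (SD, n = 3), followed by CEMIP2 at 4.98 ± 0.946 and THBS1 at 4.65 ± 0.514, whose ranges overlapped each other but not that of FN1. SPARC at 0.483 ± 0.28 and ADAMTS10 at 0.384 ± 0.0379 were lowest, and their ranges overlapped. FN1 stayed highest with shEZH2#1 (34.7 ± 4.34) and shEZH2#3 (31.7 ± 3.51). GPNMB, at 1.8 ± 0.898 in shluc, stood next to FN1 with shEZH2#1 at 7.4 ± 1.62 and with shEZH2#3 at 6.06 ± 2.33. SERPINE2 was lowest with shEZH2#3 at 0.774 ± 0.132.

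Of the 9 genes, FN1, SPARC, DKK3 and GPNMB also varied together between libraries of a group. With the group means taken out of log2 CPM, the correlation over 9 libraries was 0.91 for FN1 with SPARC, 0.96 for FN1 with GPNMB, 0.87 for FN1 with DKK3, 0.98 for SPARC with GPNMB, 0.95 for SPARC with DKK3 and 0.93 for DKK3 with GPNMB. These 9 points share libraries and depth, and the values are a description. These were lowest in shluc replicate 1 and shEZH2#3 replicate 3 within their groups and highest in shEZH2#1 replicate 3. DCN ran the other way, with correlations of -0.30 to -0.50 with them. In shluc the highest library exceeded the lowest by a factor of 4.16 in SPARC, 3.14 in GPNMB and 2.88 in DKK3, against a median of 1.41 and a 90th percentile of 2.08 over all tested genes.

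**Figure D3:**
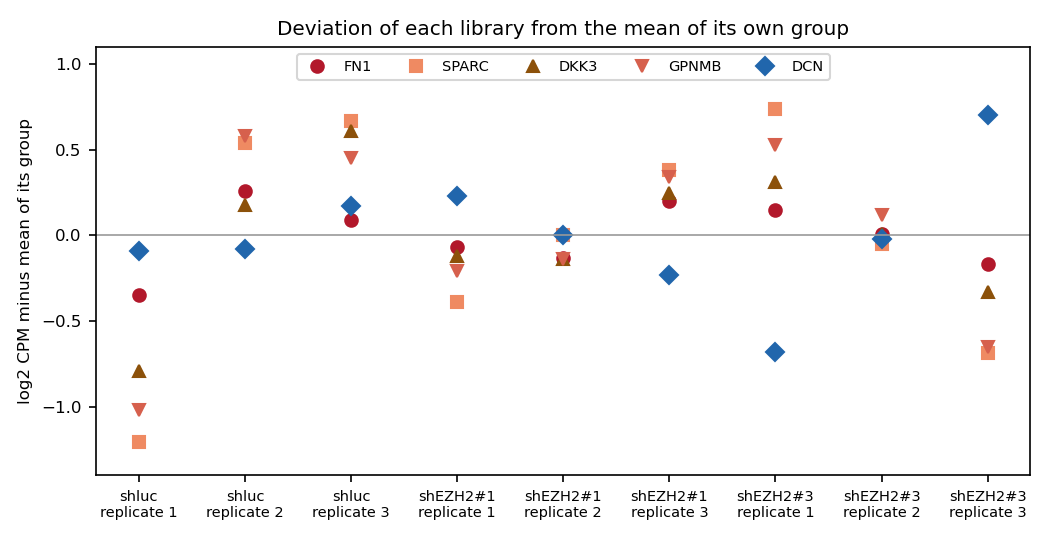
Log2 CPM of FN1, SPARC, DKK3, GPNMB and DCN in each library minus the mean of its own group. In shluc replicate 1 SPARC lay at -1.21 and GPNMB at -1.02, and in shEZH2#3 replicate 3 DCN lay at 0.70 while SPARC lay at -0.69.

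The genes most like each member over the 9 libraries were named from 7887 protein-coding genes with a mean of at least 5 CPM, by the Pearson correlation of log2 CPM. IGFN1 stood closest to SPARC (0.957), GPNMB (0.956) and DKK3 (0.954), followed for all 3 by IFITM10 at 0.894, 0.905 and 0.919. ASMTL (0.925) was among the closest to FN1, and CAMKK1 (0.953) and POLG (0.9) to DCN. SLC25A25 (0.977) and FAM83D (0.969) were closest to THBS1, CDYL (0.985) and MED17 (0.974) to SERPINE2, DOCK6 (0.984) and PLXNB1 (0.971) to ADAMTS10, and MMGT1 (0.995) and SERBP1 (0.994) to CEMIP2. These correlations include the differences between groups.

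**Figure D4:**
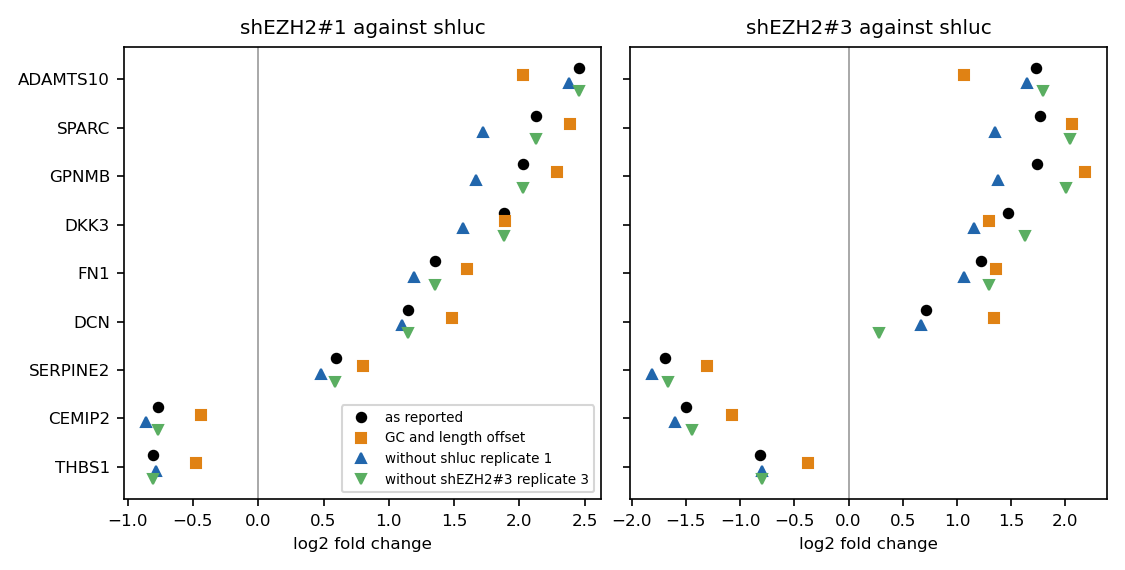
Log2 fold change of each gene against shluc for shEZH2#1 (left) and shEZH2#3 (right), as reported, with an offset for GC content and length, and without shluc replicate 1 or shEZH2#3 replicate 3. Every gene keeps its side of 0 in all 4 settings, and DCN with shEZH2#3 runs from 0.28 to 1.34.

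Other matrix genes, from 12 lists by role that hold none of the 9, moved in both directions. Of 200 tested list genes, 20 rose and 35 fell with shEZH2#1 (10.0% and 17.5%, against 11.2% and 7.89% of all genes), with a median log2 fold change of -0.09 against -0.07 over all genes. With shEZH2#3, 84 rose and 48 fell (42.0% and 24.0%, against 24.4% and 19.8%), with a median of 0.26 against -0.01. With the GC and length offset the shEZH2#3 counts were 47 and 26. The counts over all genes with shEZH2#3 then also fell, from 3237 higher and 2624 lower to 1694 and 1526. With shEZH2#1 the offset gave 17 list genes higher and 45 lower, beside 1092 and 1297 of all genes in place of 1478 and 1045. Without shEZH2#1 replicate 3 the shEZH2#1 counts were 12 and 19, without shEZH2#1 replicate 2 they were 13 and 18, and without shluc replicate 2 the genes that fell numbered 23 with shEZH2#1 and 27 with shEZH2#3.

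Among 21 tested fibronectin receptors and assembly factors, 5 rose and 3 fell with shEZH2#1 (median -0.17), and 12 rose and 5 fell with shEZH2#3 (median 0.51). ITGA5, the alpha chain of the main fibronectin receptor, averaged 459.5 ± 30.1 CPM in shluc, 626 ± 65.8 with shEZH2#1 and 1106 ± 124 with shEZH2#3 (SD, n = 3). It rose by 0.45 ± 0.15 (SE) on the log2 scale (edgeR adjusted p = 0.0468) and 1.27 ± 0.16 (adjusted p = 1.13e-05). The shEZH2#1 call was lost with the GC and length offset (0.26), while the shEZH2#3 value was 0.79. In all, the shEZH2#1 call of ITGA5 held in 8 of 20 alternative settings of the fit. LOXL4, a lysyl oxidase that crosslinks collagen, rose by 0.80 and 0.77, and with the offset by 0.65 and 0.33, the latter not past the threshold. Among 11 thrombospondin family genes and receptors, 2 rose and 1 fell with shEZH2#1 (median -0.08), and 6 rose and 2 fell with shEZH2#3 (median 0.49). SPON2, a secreted spondin, rose by 0.87 and 0.75, and THSD4 fell by 0.64 and 0.74. With the offset the shEZH2#3 value of SPON2 (0.07) and the shEZH2#1 value of THSD4 (-0.40) did not pass the threshold. The THSD4 call with shEZH2#1 held in 10 of 20 alternative settings.

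In the SPARC and follistatin-like family 6 genes were tested, with none up and 2 down with shEZH2#1 (median -0.38), and 4 up and 1 down with shEZH2#3 (median 0.77). FSTL1, a secreted follistatin-like glycoprotein, went from 66.8 ± 6.56 CPM to 42.2 ± 4.84 and 31.7 ± 2.22 (SD, n = 3) and fell by 0.66 ± 0.15 (SE, edgeR adjusted p = 0.00441) and 1.07 ± 0.15 (adjusted p = 3.38e-05). With the offset FSTL1 fell by 0.34 and 0.57, both past the threshold. Of 13 plasminogen and thrombin genes, 2 fell with shEZH2#1 (median 0.16), and 4 rose and 5 fell with shEZH2#3 (median -0.08). F3, tissue factor, fell by 0.78 with shEZH2#1 and 0.42 with shEZH2#3, and the latter was 0.03 with the offset. The F3 call with shEZH2#3 held in only 4 of 20 alternative settings. Of 3 tested leucine-rich proteoglycans (medians 0.13 and 0.28), 1 was called, TSKU, at 0.78 ± 0.16 with shEZH2#3 (0.36 with the offset, past the threshold). Of 9 Wnt antagonists and Dickkopf receptors, 1 fell with shEZH2#1 (median -0.52), and 1 rose and 3 fell with shEZH2#3 (median -0.12). LRP5, a Wnt coreceptor, was called at 0.45 with shEZH2#3, but not with the offset (-0.14). That LRP5 call held in 11 of 20 alternative settings.

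Of 24 lysosomal genes related to GPNMB, 2 rose and 4 fell with shEZH2#1 (median -0.02), and 12 rose and 5 fell with shEZH2#3 (median 0.30). CTSB, a lysosomal cysteine protease, rose by 0.52 ± 0.14 (SE, edgeR adjusted p = 0.0168) and 0.63 ± 0.14 (adjusted p = 0.00192), and was past the threshold with the offset in both. CTSD rose by 0.48 and 0.89, and was past the threshold with neither hairpin with the offset. Its shEZH2#1 call held in 9 of 20 alternative settings. Of 25 ADAMTS and microfibril genes, 3 rose and 4 fell with shEZH2#1 (median 0.10), and 10 rose and 4 fell with shEZH2#3 (median 0.42). ADAMTSL2 rose by 0.93 and 1.16, and FBN1 and FBN2, the fibrillins, fell by 0.49 and 0.64 with shEZH2#1 and by 0.44 and 0.48 with shEZH2#3. With the offset only the shEZH2#1 value of FBN2, of these 6 calls, passed the threshold. The FBN1 call held in 7 of 20 alternative settings with shEZH2#1 and in 9 with shEZH2#3.

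Of 12 hyaluronan genes, 2 rose and 1 fell with shEZH2#1 (median -0.26), and 4 rose and 6 fell with shEZH2#3 (median -0.42). HYAL3 rose by 0.77 ± 0.16 (SE, edgeR adjusted p = 0.00258) and 1.42 ± 0.16 (adjusted p = 6.57e-06). With the offset HYAL3 rose by 0.39 and 0.83, both past the threshold. The CEMIP2 relative CEMIP, chosen after its values were seen, went from 3.26 ± 0.31 CPM to 1.03 ± 0.594 and 0.98 ± 0.286 (SD, n = 3) and fell by 1.69 and 1.74. Of 29 other matricellular genes, 3 rose and 4 fell with shEZH2#1 (median -0.19), and 15 rose and 3 fell with shEZH2#3 (median 0.58). TNXB, a tenascin, rose by 1.01 and 1.02, and with the offset by 0.63 and 0.41. Of 21 matrix metalloproteinases and inhibitors, 3 rose and 3 fell with shEZH2#1 (median 0.20), and 11 rose and 3 fell with shEZH2#3 (median 0.68). MMP15 rose by 0.51 and 1.03, and with the offset the shEZH2#1 value was 0.08 and the shEZH2#3 value 0.36, the latter past the threshold. Of 30 TGF-beta ligands, activators and targets, none rose and 11 fell with shEZH2#1 (median -0.28), and 5 rose and 11 fell with shEZH2#3 (median -0.06). SMAD2 fell by 0.84 ± 0.14 (SE, edgeR adjusted p = 0.000668) and 0.56 ± 0.14 (adjusted p = 0.00398), and the latter was -0.01 with the offset. COL4A1, a basement membrane collagen, fell by 0.66 and 0.51, and by 0.63 and 0.74 with the offset.

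**Figure D5:**
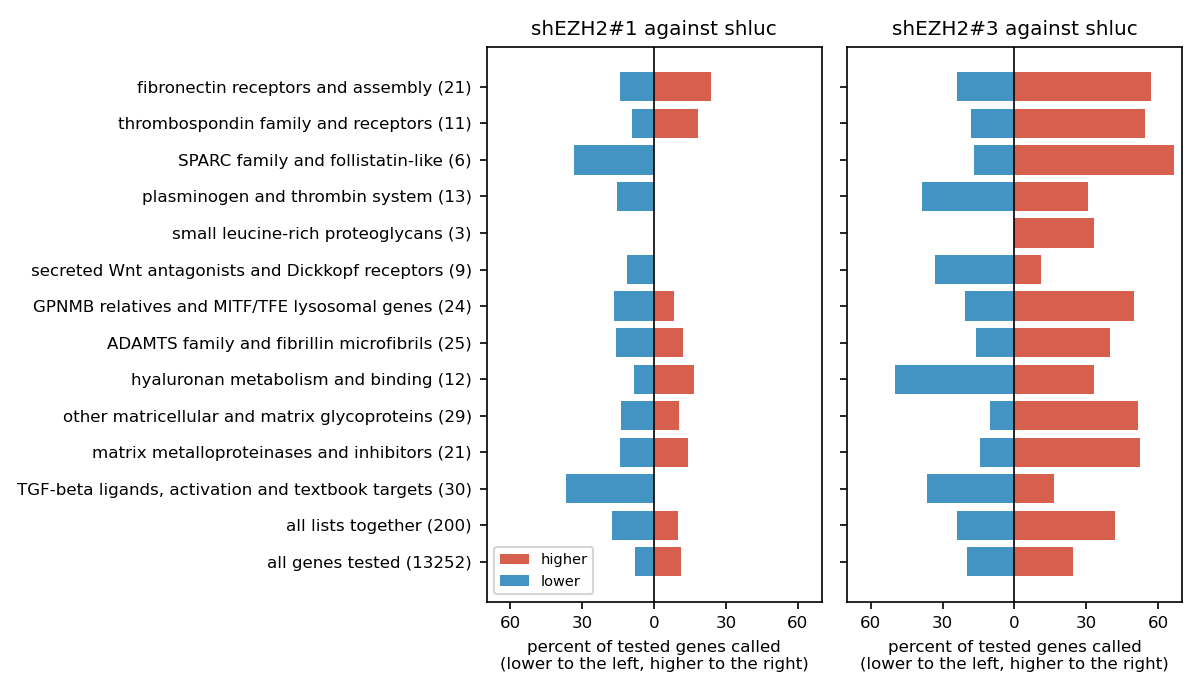
Percent of the tested genes of each list (number tested in brackets) called higher (red, to the right) and lower (blue, to the left) at an adjusted p below 0.05 with each hairpin, with all genes at the bottom. With shEZH2#3, 42.0% of the list genes were higher, against 24.4% of all genes.

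Low-level list genes SPP1, ITGB3, THBS2 and MMP11, chosen after their values were seen, had log2 fold changes of at least 1 in size with both hairpins. Of all genes, 1.37% were called with both in 1 direction at that size. Every library of both hairpins lay above every shluc library for these genes, beside 12.0% of all genes. MMP11, a matrix metalloproteinase, went from 0.967 ± 0.28 CPM to 2.59 ± 0.718 and 2.84 ± 0.528 (SD, n = 3) and rose by 1.41 and 1.55. SPP1, osteopontin, stood at 0, 0.439 and 0.719 CPM in shluc, 2.18, 2.36 and 3.45 with shEZH2#1 and 1.95, 2.43 and 1.77 with shEZH2#3. ITGB3, an integrin beta chain that binds fibronectin and osteopontin, stood at 0.184, 0.359 and 0.479 CPM in shluc, 1.63, 1.69 and 2.79 with shEZH2#1 and 1.77, 1.56 and 0.829 with shEZH2#3. THBS2, the relative of THBS1, stood at 0, 0.159 and 0.24 CPM in shluc, 0.968, 0.725 and 1.1 with shEZH2#1 and 1.2, 0.436 and 1.05 with shEZH2#3. ITGB3 and THBS2 thus stood higher with both hairpins where THBS1 stood lower.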

How the data were processed

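Polyadenylated RNA was selected and made into dUTP-stranded libraries, per the labels' protocols. fastp, HISAT2, StringTie and the build GRCh38 (hg38) are named, without versions, in the submitters' processing notes. Counting step, annotation release and strand setting: not given in the sources used here. Per gene, the deposited files hold estimated counts without normalization, and 14.7 to 18.5% of nonzero values in a library carry decimals. They were rounded, scaled by TMM and tested with edgeR 4.0.16 (R 4.3.3) after filterByExpr, with all 9 libraries in 1 quasi-likelihood fit and adjustment over 13252 genes. A gene was called at an adjusted p below 0.05. An SE is approximate. Gene positions, lengths and GC content came from GENCODE 29.

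Members and lists were chosen with earlier results of these data known. From each list, up to 4 genes called with both hairpins in 1 direction at a mean of at least 5 CPM were named, or else the 2 most abundant. Genes of at least 1 in log2 fold size, or called in opposite directions, were added after their values were seen. Alternatives were RLE and upper quartile scaling, no filter and a stricter filter, only the groups compared, limma-voom (limma 3.58.1), DESeq2 1.42.0, a minimum fold of 2, a GC and length offset (loess span 0.3), the replicate number as a block, fits without 2 abundant unnamed genes, and each library left out. Those 2 genes held 6.96 to 9.28% of counts in shluc, 15.81 to 22.58% with shEZH2#1 and 5.97 to 11.59% with shEZH2#3. The fit was also run on counts simulated from its own means, dispersions and library sizes, without a GC trend. That run does not bear on the GC trend of these libraries. A gene that the rule on likeness named is not reported here.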

Additional observations from a re-analysis of the deposited data

Results flagged for a closer look

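The hairpins differed from each other for 14 of the named list genes. The test was that of shEZH2#1 against shEZH2#3 itself (edgeR quasi-likelihood test, Benjamini-Hochberg adjusted over all tested genes). Of the 200 tested list genes, named or not, 13 were called higher and 71 lower with shEZH2#1 than with shEZH2#3 (6.5% and 35.5%). Of all tested genes, 9.46% were called higher and 15.5% lower. In 8 of the 14 the level was lower than shluc with shEZH2#1 and higher with shEZH2#3. These 8 were chosen after their values were seen, for calls in opposite directions, which 0.838% of all tested genes had. A difference between the hairpins follows from that choice, so their values in the direct test are a description and no support. PCOLCE, which enhances procollagen processing, differed by -1.91 on the log2 scale (adjusted p = 7.99e-08) and VTN, the adhesion glycoprotein vitronectin, by -1.85 (3.34e-07). COL1A1 and COL5A1, fibrillar collagen chains, differed by -1.37 (5.04e-06) and -1.03 (6.58e-05). SMOC1, a relative of SPARC, ADAMTSL4, a microfibril protein, and CCN1, a matricellular protein, each differed by -1.36 (adjusted p = 2.7e-06, 2.7e-06 and 1.98e-06). LOXL2, a lysyl oxidase, differed by -1.29 (8.33e-06). With the GC and length offset the rise with shEZH2#3 did not pass the threshold for LOXL2, ADAMTSL4, COL1A1 and COL5A1. All 8 stayed past it in the direct test, an outcome that their choice favours.

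The other 6 were ITGA5 at -0.82 (adjusted p = 0.000649), TSKU at -0.75 (0.00158), HYAL3 at -0.65 (0.00475), LRP5 at -0.52 (0.0262), MMP15 at -0.52 (0.0301) and FSTL1 at 0.41 (0.0484). With the offset the difference between the hairpins did not pass the threshold for LRP5 (-0.24, adjusted p = 0.11) and FSTL1 (0.22, adjusted p = 0.0922). Of 20 alternatives, FSTL1 passed it in 9, LRP5 in 12 and MMP15 in 14. Groups of 3 libraries were not searched for outlying samples.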

How the results depend on the processing

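The 9 genes kept their direction against shluc in every alternative that tested them, and the stricter filter left out SPARC and DKK3. DCN with shEZH2#3 was not past the threshold with upper quartile scaling (0.54), with limma-voom (0.61), or without shEZH2#3 replicate 3 (0.28), and SERPINE2 with shEZH2#1 passed it with the offset (0.80). Upper quartile scaling moved the median log2 fold change of all genes with shEZH2#3 from -0.01 to -0.18, and its calls from 3237 higher and 2624 lower to 2421 and 3720. Without the 2 abundant unnamed genes, the calls with shEZH2#1 went from 1478 higher and 1045 lower to 1707 and 779. List genes called with shEZH2#1 went from 20 higher and 35 lower to 21 and 30.

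With the GC and length offset, the genes called with shEZH2#3 numbered 3220 in place of 5861, of which 2091 were shared, and list genes 47 higher and 26 lower. A minimum fold of 2 left 494 genes with shEZH2#1 (7 list genes higher, 4 lower), 1543 with shEZH2#3 (30 and 15) and 918 between the hairpins. Leaving out 1 library gave 1159 to 3063 genes with shEZH2#1 (list genes 12 to 22 higher, 18 to 39 lower), 4251 to 5823 with shEZH2#3 (67 to 85 and 27 to 49) and 1956 to 3941 between the hairpins. The cause was not tested.

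Among named values past the threshold with or without the offset, the offset changed the sign for CTSD with shEZH2#1 (-0.006), and with shEZH2#3 for F3 (0.03), LRP5 (-0.145), KREMEN2 (-0.652), HYAL2 (-0.186), LGALS1 (-0.019) and COL5A1 (-0.081). LGALS1 between the hairpins came to 0.342. Values past the threshold in neither fit also changed sign, such as KREMEN2 with shEZH2#1 (0.37 to -0.20), LUM with shEZH2#3 (-0.48 to 0.09) and, between the hairpins, THBS1 (0.01 to -0.10).

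Replicate numbers did not pair the libraries: same-numbered libraries of different groups correlated at -0.12 to 0.08 in their deviations from group means. With the replicate block, 2208 genes were called with shEZH2#1 (15 list genes higher, 29 lower), 5482 with shEZH2#3 (76 and 41) and 2938 between the hairpins. The replicate block together with the offset gave 10 list genes higher with shEZH2#1, and 3033 genes (43 list genes higher, 26 lower) with shEZH2#3. In that fit, again among values past the threshold in it or as reported, the signs changed for CTSD with shEZH2#1 (-0.001), for F3 (0.03), LRP5 (-0.141), KREMEN2 (-0.653), HYAL2 (-0.189), LGALS1 (-0.019), COL1A1 (-0.001) and COL5A1 (-0.077) with shEZH2#3, and for LGALS1 between the hairpins (0.342).

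SPARC, DKK3 and ADAMTS10 in shluc rest on 13 to 57 estimated counts a library. Groups of 3 libraries limit every SD.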
